A study of Mus musculus with 6 samples.

Results

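Prostaglandins are made from arachidonic acid in a relay of enzymes, and the 10 genes described here cover its main steps. They are the phospholipase gene Pla2g4a, the cyclooxygenase genes Ptgs1 and Ptgs2, the terminal synthase genes Ptges, Ptges2, Ptgis and Ptgds, and the receptor genes Ptger2, Ptger4 and Ptgfr. They were chosen by gene name, and all 10 were found among the 54532 genes of the deposited table. The samples were primary ventricular cardiomyocytes of C57BL/6J mice, isolated at 1 day of age. In the shGDF11 group the cells carried a short hairpin RNA against Gdf11, which encodes a secreted signal protein related to TGF-beta, and in the control group a control hairpin, labelled sh-nc or sh-Vector. Both groups held 3 libraries, both received the hairpin at a multiplicity of infection of 200, and RNA was taken after 48 h. The sources used here do not give the vector type, the promoter that drives the hairpins, or whether the numbered samples stand for different hairpins or cultures. The p-values therefore reflect just the variation among these 6 libraries, part or all of which could be technical.

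Cytosolic phospholipase A2 frees arachidonic acid from membrane lipids. The cyclooxygenases convert it to the unstable intermediate prostaglandin H2, from which each terminal synthase makes its own product, and the products act on neighbouring cells through G-protein-coupled receptors. In the heart, prostaglandins are known for effects on vessel tone, inflammation and the growth of myocytes, and the inducible cyclooxygenase is a step that inflammatory and growth signals control.

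Levels are FPKM, fragments scaled for gene length and library size, so they can be compared between genes, though only roughly. For the genes described here the length equalled all annotated exon bases, which can exceed that of the transcript present. The libraries held 15686602 to 15982381 reads in listed genes in shGDF11 and 15267083 to 16152910 in control, and their FPKM summed to 304770 to 309981 in shGDF11 and 315542 to 351657 in control. Gdf11 was at 0.614, 0.601 and 0.778 FPKM in the shGDF11 libraries and at 2.76, 2.30 and 2.31 FPKM in the control libraries, with no overlap (log2 fold change -1.34 ± 0.125 SE, limma adjusted p = 0.00079). The cardiomyocyte markers Tnnt2 and Myh6 were at 916 and 1337 FPKM in shGDF11 and at 832 and 1605 FPKM in control, so the defining markers of the labelled cell type were present, and transcripts of fibroblasts, endothelium and macrophages were present as well. All fold changes are shGDF11 minus control on log2(FPKM + 0.5), which understates changes of low genes, and a gene was called at a limma adjusted p under 0.05 over all 15418 tested genes.

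Of the 10 genes, Ptgs2 and Ptgis fell in the shGDF11 libraries, 7 were tested and not called, and Ptger2 lay below the filter of a mean of 0.5 FPKM. The share of called genes over the whole table was 27.6%, with 14.4% higher and 13.1% lower, so 2 calls among 9 tested genes do not by their number set these genes apart. The fall of Ptgs2 was large for this table: only 25 of the 15418 tested genes had a lower log2 fold change. The median log2 fold change was -0.15 over the 9 tested genes and 0.01 over all tested genes.

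The promoters of the 2 cyclooxygenase genes are shown because these isoenzymes share a reaction, and one fell while the other was not called. Both windows run from 250 bases before the annotated start to the 50th base from it on GRCm38.p6, from RefSeq, on the plus strand, at chr2:36230176-36230475 for Ptgs1 and chr1:150099781-150100080 for Ptgs2. Capitals mark exact matches, on either strand, to any of 7 motifs. The core of the cAMP response element was searched as CGTCA, and the E-box, which basic helix-loop-helix factors bind, as CACGTG. The TATA box, which places the start of transcription, was searched as TATAAA, and the NF-kB motif by a single form that is narrower than its usual consensus and misses known variants, so its absence from a window says nothing of those. The motif of the C/EBP factors was searched as TTNNGNAA, and the SMAD element, bound by the mediators of TGF-beta signals, as CAGAC. The core of the hypoxia response element was searched as ACGTG, which also lies inside the E-box.
Ptgs1: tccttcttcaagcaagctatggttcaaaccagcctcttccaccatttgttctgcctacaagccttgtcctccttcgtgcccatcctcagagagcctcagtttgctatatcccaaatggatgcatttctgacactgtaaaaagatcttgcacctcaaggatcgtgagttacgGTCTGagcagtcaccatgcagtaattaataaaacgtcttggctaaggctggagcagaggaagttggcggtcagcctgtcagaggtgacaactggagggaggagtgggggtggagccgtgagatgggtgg
Ptgs2: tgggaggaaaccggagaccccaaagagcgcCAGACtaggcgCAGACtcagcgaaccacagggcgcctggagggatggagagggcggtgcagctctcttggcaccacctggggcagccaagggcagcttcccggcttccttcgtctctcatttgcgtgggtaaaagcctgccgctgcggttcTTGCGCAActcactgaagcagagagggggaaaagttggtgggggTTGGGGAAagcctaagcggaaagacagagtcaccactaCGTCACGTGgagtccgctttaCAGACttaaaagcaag

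The Ptgs2 window held 5 of the 7 motifs and the Ptgs1 window 1, a SMAD element on the minus strand. In Ptgs2 the cAMP core began at base 14 counted from the annotated start and overlapped the E-box, which began at base 17. Where transcription starts in these cells was not measured, so these positions hold for the annotation only. Its C/EBP matches began at -69 and -25, and its SMAD elements at -220, -209 and 35. Among 27025 promoter windows of the same length, 21.0% held the cAMP core, 7.24% the E-box, 40.7% the C/EBP motif and 49.7% the SMAD element. The promoter of Ptges2 also held the E-box, and no other of the 9 genes with a window in the table held the cAMP core. A match describes letters only and no binding was measured here.

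The untranslated 3′ ends of the isoenzymes also differ. That of Ptgs2, 2445 bases long, held 14 copies of ATTTA, the pentamer of AU-rich elements through which proteins such as the one encoded by Zfp36 speed mRNA decay, and 2.97% of 21021 protein-coding genes held as many or more. Such counts grow with length. Per kb Ptgs2 held 5.73 copies, and 5.28% of the genes held as many or more. That of Ptgs1, 921 bases long, held 0. The 30-base stretch with the most copies in Ptgs2, 4 of them, begins at base 12 after the stop codon, with ATTTA in capitals.
Ptgs2: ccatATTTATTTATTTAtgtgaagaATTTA
Ptgfr held 14 copies in 5122 bases, Ptger2 6, Ptger4 5, and Ptges2 and Pla2g4a 4 each, while Ptges, Ptgis and Ptgds held 0. Per kb the densest of the members was Pla2g4a, with 9.03 copies per kb in a 3′ end of 443 bases, and 1.51% of the genes held as many or more.

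Ptgs2, the inducible cyclooxygenase (ENSMUSG00000032487, GRCm38 chromosome 1, 150100031 to 150108227, plus strand), was at 1.85, 1.87 and 1.96 FPKM in the shGDF11 libraries. In the control libraries it was at 6.49, 7.83 and 7.86 FPKM. Every shGDF11 library lay far below every control library, and the shGDF11 libraries were closely grouped. The means were 1.89 ± 0.0618 and 7.39 ± 0.783 FPKM (mean ± SD, n = 3 in each group here and for each mean below), so the shGDF11 level was 25.6% of control. The log2 fold change was -1.72 ± 0.0935 SE (95% interval -1.94 to -1.50, limma adjusted p = 0.00019). It rested on 139 to 145 reads per shGDF11 library and 467 to 598 per control library. The call was kept under all 15 alternatives, with log2 fold changes of -1.96 to -1.53.

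Ptgs1, the constitutive cyclooxygenase (ENSMUSG00000047250, chromosome 2, 36230426 to 36252272, plus strand), was not called. It was at 6.41, 6.49 and 6.18 FPKM in the shGDF11 libraries and at 5.01, 6.07 and 5.27 FPKM in the control libraries. The values did not overlap, which was true of 45.8% of all tested genes, and the nearest 2 libraries, shGDF11 replicate 3 and control replicate 2, were close. Its log2 fold change of 0.21 ± 0.0837 SE missed the threshold (95% interval 0.01 to 0.41, limma adjusted p = 0.11), and no alternative called it.

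The make-up of the cyclooxygenase transcripts differed accordingly. Ptgs2 made up 22.4%, 22.3% and 24.1% of the summed FPKM of Ptgs1 and Ptgs2 in the shGDF11 libraries, against 56.4%, 56.3% and 59.8% in the control libraries. Ptgs2 was the higher isoenzyme in every control library and the lower in every shGDF11 library. The log2 ratio of Ptgs2 to Ptgs1 differed by -2.19 ± 0.0835 SE, with p = 0.1 by a two-sided exact permutation test, which is its minimum for 3 libraries a group. The sum of both genes was 8.25 ± 0.11 FPKM in shGDF11 and 12.8 ± 1.22 FPKM in control, also without overlap (exact permutation p = 0.1).

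**Figure D1:**
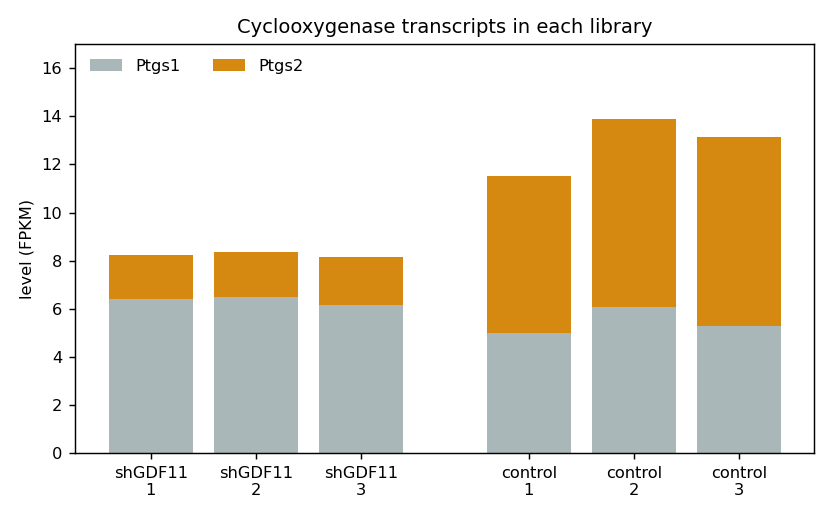
Stacked bars give the level in FPKM of Ptgs1 (grey) and Ptgs2 (orange) in each of the 3 shGDF11 and 3 control libraries. The orange part is 22.3% to 24.1% of the bar in the shGDF11 libraries and 56.3% to 59.8% in the control libraries, and Ptgs1, the grey part, spans 6.18 to 6.49 FPKM in shGDF11 and 5.01 to 6.07 FPKM in control.

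Pla2g4a encodes the cytosolic phospholipase A2 that supplies the cyclooxygenases. It lies 139 kb from Ptgs2 on chromosome 1 (ENSMUSG00000056220, 149829618 to 149961290, minus strand). Its level was 2.89, 3.58 and 2.93 FPKM in the shGDF11 libraries and 3.10, 2.86 and 3.58 FPKM in the control libraries. The ranges of the groups nearly coincided, unlike those of its neighbour Ptgs2. The log2 fold change was -0.02 ± 0.114 SE (95% interval -0.29 to 0.25, limma adjusted p = 0.92).

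Among the terminal synthases, Ptgis fell and the other 3 were not called. Ptgis makes prostacyclin, a vasodilator that also restrains platelets (ENSMUSG00000017969, chromosome 2, 167191805 to 167240604, minus strand). It was at 8.16, 6.68 and 8.64 FPKM in the shGDF11 libraries and at 11.1, 11.8 and 9.60 FPKM in the control libraries. The groups did not overlap, but shGDF11 replicate 3 and control replicate 3 lay within 1 FPKM of each other. The log2 fold change was -0.44 ± 0.115 SE (95% interval -0.71 to -0.17, limma adjusted p = 0.0283). This call was less firm than that of Ptgs2: 8 of 15 alternatives kept it, with adjusted p from 0.00937 to 0.0881. It was lost without shGDF11 replicate 1 (0.0639), shGDF11 replicate 2 (0.0809), control replicate 1 (0.0619) or control replicate 2 (0.0881), after rescaling to TPM (0.0647), with no filter on low values (0.0668) and with the replicate block (0.0709). An opposite-strand transcript, 1110018N20Rik, covers 6.08% of the exon bases of Ptgis and was at 0.903 to 1.31 FPKM in shGDF11 and 0.544 to 0.722 FPKM in control, and the sources used here do not say whether counting used the strand. Opposite-strand transcripts also cover 1.23% to 15.3% of the exon bases of Ptgs1, Ptger2, Ptger4 and Ptgfr, and none was found over Ptgs2, Ptges, Ptges2, Ptgds or Pla2g4a.

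The pair of prostaglandin E synthases showed smaller differences. Ptges, the inducible membrane enzyme that often works with Ptgs2 (ENSMUSG00000050737, chromosome 2, 30889471 to 30929863, minus strand), was at 4.13, 3.59 and 2.87 FPKM in the shGDF11 libraries and at 3.92, 3.39 and 3.71 FPKM in the control libraries. The shGDF11 values spread over both sides of the control values, and Ptges was not called (log2 fold change -0.06 ± 0.128 SE, 95% interval -0.36 to 0.24, limma adjusted p = 0.76). Ptges2, the constitutive one of the pair (ENSMUSG00000026820, chromosome 2, 32395896 to 32405772, plus strand), was at 8.49, 8.28 and 8.96 FPKM in the shGDF11 libraries and at 9.85, 9.67 and 9.36 FPKM in the control libraries. All shGDF11 values lay below all control values by a small margin, and the gene was not called (log2 fold change -0.16 ± 0.0618 SE, limma adjusted p = 0.10).

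Ptgds, the lipocalin-type prostaglandin D synthase (ENSMUSG00000015090, chromosome 2, 25466709 to 25470046, minus strand), was the most abundant of the 10 transcripts. It was at 45.7, 42.2 and 41.0 FPKM in the shGDF11 libraries and at 44.1, 37.9 and 40.9 FPKM in the control libraries. The groups overlapped (log2 fold change 0.07 ± 0.0755 SE, 95% interval -0.11 to 0.25, limma adjusted p = 0.53). With 1041 to 1237 reads per library it was also the most deeply read of the 10.

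The receptor transcripts were scarce, and none was called. Ptger4 encodes EP4, a prostaglandin E2 receptor that raises cAMP (ENSMUSG00000039942, chromosome 15, 5206661 to 5244187, minus strand). It was at 1.14, 1.03 and 0.904 FPKM in the shGDF11 libraries and at 1.12, 1.10 and 1.36 FPKM in the control libraries, with overlap (log2 fold change -0.15 ± 0.131 SE, 95% interval -0.46 to 0.16, limma adjusted p = 0.42). Ptgfr, the receptor of prostaglandin F2-alpha, which signals through calcium (ENSMUSG00000028036, chromosome 3, 151796502 to 151837630, minus strand), was at 0.584, 0.649 and 0.640 FPKM in shGDF11 and at 0.704, 0.920 and 0.868 FPKM in control. Its groups did not overlap, but the call was not reached at 65 to 104 reads per library (log2 fold change -0.24 ± 0.145 SE, 95% interval -0.58 to 0.10, limma adjusted p = 0.26). Ptger2, the EP2 receptor (ENSMUSG00000037759, chromosome 14, 44988195 to 45003820, plus strand), held 4, 2 and 7 reads in the shGDF11 libraries and 8, 15 and 1 in the control libraries. At this depth no difference in Ptger2 could be detected.

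**Figure D2:**
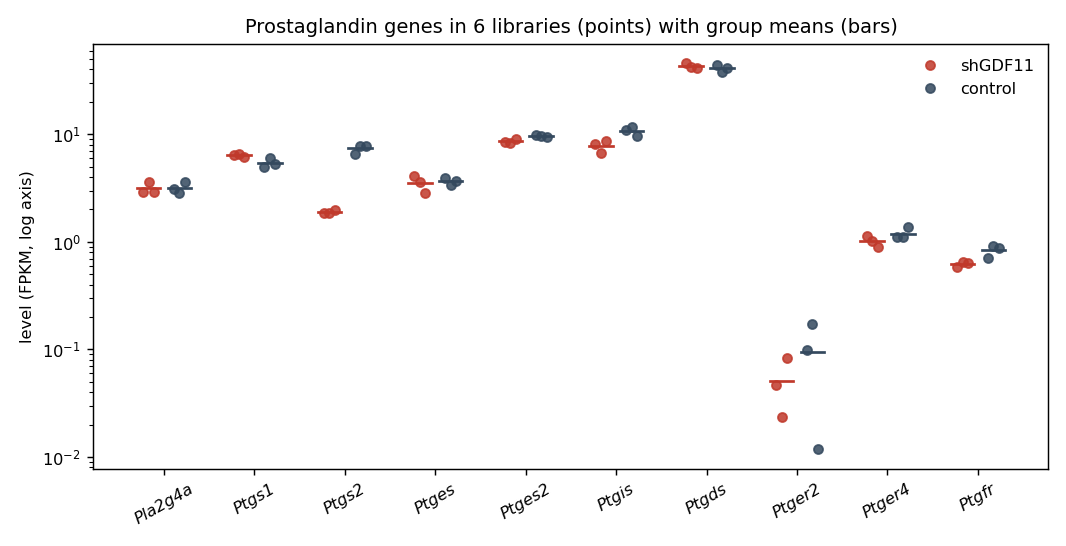
Points give the level of each gene in each library in FPKM on a log axis, shGDF11 in red to the left of control in dark blue, and short bars give the group means. Ptgs2 is the gene whose groups stand far apart (1.89 against 7.39 FPKM), and Ptger2 lies lowest, at 0.0118 to 0.173 FPKM.

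**Figure D3:**
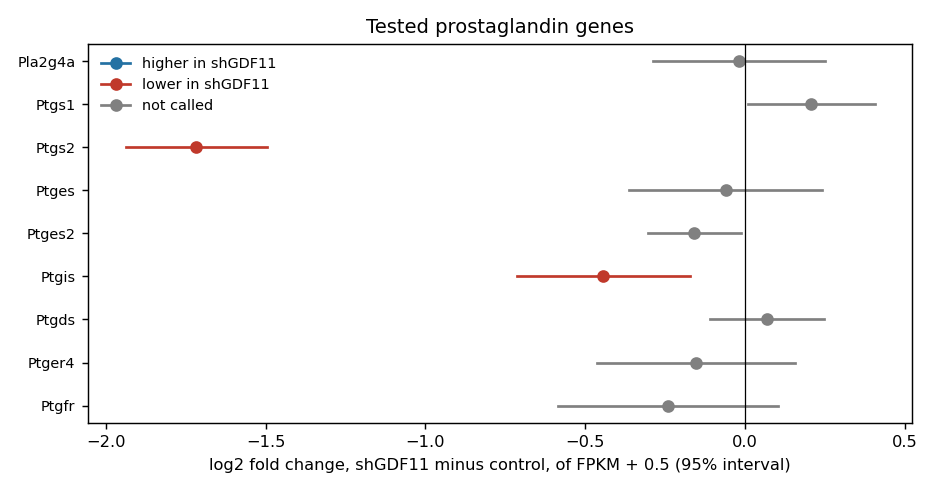
Points give the log2 fold change (shGDF11 minus control) of the 9 tested genes and lines the 95% interval. Ptgs2 (-1.72) and Ptgis (-0.44), in red, were called lower and the 7 grey genes were not called.

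Ordered by mean level per length, the shGDF11 libraries ran from Ptgds (43.0 FPKM) through Ptges2, Ptgis, Ptgs1, Ptges, Pla2g4a, Ptgs2, Ptger4 and Ptgfr to Ptger2 (0.0513 FPKM). The control libraries ran from Ptgds (40.9 FPKM) through Ptgis, Ptges2, Ptgs2, Ptgs1, Ptges, Pla2g4a, Ptger4 and Ptgfr to Ptger2 (0.0944 FPKM). Ptgs2 thus stood at rank 7 in shGDF11 and at rank 4 in control. In both groups Ptgis and Ptges2, and likewise Ptges and Pla2g4a, overlapped in their library values, while all other neighbours in either order did not overlap.

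The transcripts whose profile over the 6 libraries was nearest to that of Ptgs2 were Lcn2, Ccl7 and Cxcl1. Lcn2 encodes an iron-scavenging acute-phase protein, and Ccl7 and Cxcl1 encode chemokines for monocytes and neutrophils. Nearness was the root mean square distance between centred log2(FPKM + 0.5) profiles over 7384 protein-coding candidates with a mean of 5 FPKM or more, and it was 0.145, 0.148 and 0.148. Ccl7 was at 18.4, 16.7 and 15.2 FPKM in the shGDF11 libraries and at 43.0, 50.4 and 51.1 FPKM in the control libraries, a log2 fold change of -1.50. For Ptgis the nearest were Polrmt, the mitochondrial RNA polymerase, Cyb561a3 and Selenon, at distances of 0.0335, 0.0432 and 0.0506. With 2 groups of 3 libraries, such nearness mostly reflects the difference between the groups.

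**Figure D4:**
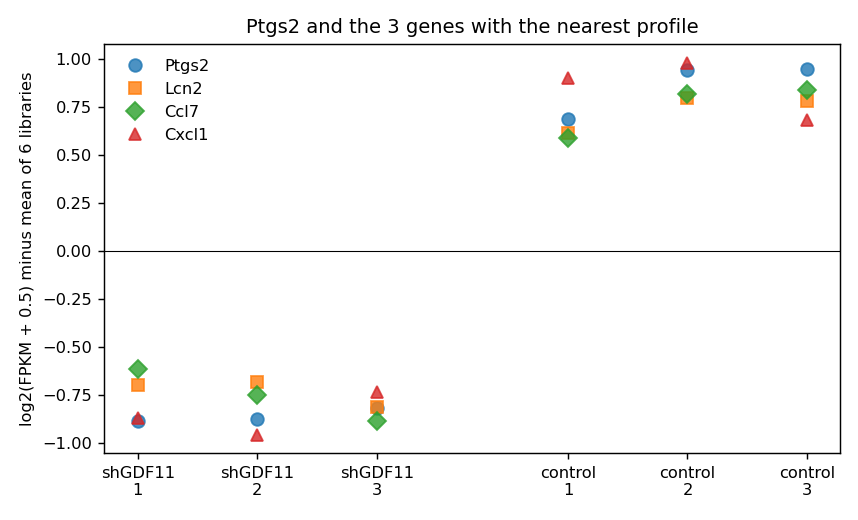
The y axis gives log2(FPKM + 0.5) minus its mean over the 6 libraries for Ptgs2, Lcn2, Ccl7 and Cxcl1, by library. All 4 genes lie below 0 in the 3 shGDF11 libraries and above 0 in the 3 control libraries.

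Beyond the 10 genes, 40 other genes of arachidonic acid metabolism were examined, of which 27 passed the filter. Of these, 8 rose and 6 fell. The share called, 14 of 27, stands beside 27.6% of all tested genes. Among the 8 rises, Tbxa2r and Cyp2j9 passed the filter through the shGDF11 libraries alone. With the filter raised to a mean of 1 FPKM, 6 rose and 6 fell among 23, beside 2136 higher and 1995 lower of 13185 genes. The median log2 fold change of the 27 genes was 0.04. The gene lists were chosen with earlier results of these data known, so these counts are description only. The 13 genes below the filter were mostly receptors and leukocyte enzymes, among them Tbxas1 and Hpgds, the synthases of thromboxane and of prostaglandin D2 in blood-derived cells, with at most 60 and 49 reads in any library.

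The clearest rise among prostanoid receptors was that of Tbxa2r, the thromboxane receptor. It was at 1.01, 1.24 and 1.23 FPKM in the shGDF11 libraries and at 0.365, 0.375 and 0.288 FPKM in the control libraries, a rise of 0.98 on the log2 scale (limma adjusted p = 0.0042). Its groups were well apart, but it passed the filter through the shGDF11 libraries alone and held only 32 to 39 reads per shGDF11 library and 9 to 12 per control library. Ptgfrn, which encodes a membrane protein that binds the prostaglandin F receptor and lowers its ligand binding, rose to 14.3 ± 0.502 FPKM in shGDF11, against 11.1 ± 0.214 FPKM in control (limma adjusted p = 0.0059). The other 5 receptor genes, Ptger1, Ptger3, Ptgdr, Ptgdr2 and Ptgir, were below the filter. Among them Ptgdr, a prostaglandin D2 receptor, held 16, 15 and 16 reads in shGDF11 and 0, 1 and 4 in control, and with no filter it was called higher. Ptgir, the prostacyclin receptor, went the other way, with 18, 17 and 26 reads in shGDF11 and 28, 32 and 27 in control. Its FPKM values did not overlap, but with no filter it was not called. The groups overlapped for Ptger1, Ptger3 and Ptgdr2.

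Genes that release or withhold arachidonic acid moved in both directions, with 1 rise and 3 falls among 8 tested. Anxa1, which encodes annexin A1, an inhibitor of cytosolic phospholipase A2 that glucocorticoids induce, fell to 29.96 ± 2.41 FPKM in shGDF11, against 43.9 ± 2.68 FPKM in control (log2 fold change -0.54, limma adjusted p = 0.0035). The secreted phospholipase gene Pla2g12a fell to 7.32 ± 0.222 FPKM in shGDF11, against 10.9 ± 0.835 FPKM in control (log2 fold change -0.54, limma adjusted p = 0.0029). Both calls were kept under all 15 alternatives. The lysosomal Pla2g15 fell (-0.41) and the calcium-independent Pla2g6 rose (0.37), but both calls were lost without any 1 shGDF11 library (limma adjusted p up to 0.0979 and 0.0944), and that of Pla2g6 also without control replicate 2. Both were lost as well with the replicate block and with no filter on low values.

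Of the other synthases, Ptges3, a co-chaperone that is also called cytosolic prostaglandin E synthase, fell to 51.4 ± 2.57 FPKM in shGDF11, against 66.2 ± 2.28 FPKM in control (limma adjusted p = 0.0061). Akr1b3, an aldose reductase that can make prostaglandin F2-alpha, rose to 17.3 ± 0.963 FPKM in shGDF11, against 13.8 ± 0.564 FPKM in control (limma adjusted p = 0.0140). The call of Akr1b3 was lost without shGDF11 replicate 1 or 2 (limma adjusted p up to 0.0595) and that of Ptges3 after rescaling to TPM (0.0530). Fam213b and Cbr1 were not called.

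Clearance genes were split. Slco2a1, the transporter that takes up prostaglandins for breakdown, rose to 4.21 ± 0.114 FPKM in shGDF11, against 2.99 ± 0.183 FPKM in control (log2 fold change 0.43, limma adjusted p = 0.0075). Ptgr1, a reductase of prostaglandin metabolites, fell to 11.7 ± 0.825 FPKM in shGDF11, against 16.5 ± 1.38 FPKM in control (log2 fold change -0.48, limma adjusted p = 0.0074). Hpgd, the dehydrogenase that inactivates prostaglandins, averaged 4.32 ± 0.478 FPKM in shGDF11 and 3.78 ± 1.20 FPKM in control, with no call (limma adjusted p = 0.50). Abcc4, an exporter, and Ptgr2 were not called either.

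In the leukotriene and epoxide branches, 3 of 8 tested genes rose and 1 fell. Ephx2, the soluble epoxide hydrolase that degrades epoxides of arachidonic acid, was at 21.3, 20.6 and 19.1 FPKM in the shGDF11 libraries and at 10.8, 11.9 and 11.3 FPKM in the control libraries, a rise of 0.82 on the log2 scale (limma adjusted p = 0.00055). The P450 genes Cyp2j6 and Cyp2j9, whose family includes makers of such epoxides, rose by 0.48 and 0.94 on the log2 scale. Both calls were lost without shGDF11 replicate 2 (limma adjusted p = 0.0541 and 0.0562), Cyp2j9 held only 7 to 56 reads and passed the filter through the shGDF11 libraries, and related Cyp2j genes can share reads. Lta4h, the leukotriene A4 hydrolase, fell to 23.0 ± 0.698 FPKM in shGDF11, against 29.7 ± 1.40 FPKM in control (limma adjusted p = 0.0060), while the 5-lipoxygenase gene Alox5 averaged 17.2 ± 1.01 FPKM in shGDF11 and 16.8 ± 0.606 FPKM in control, with no call (limma adjusted p = 0.71).

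**Figure D5:**
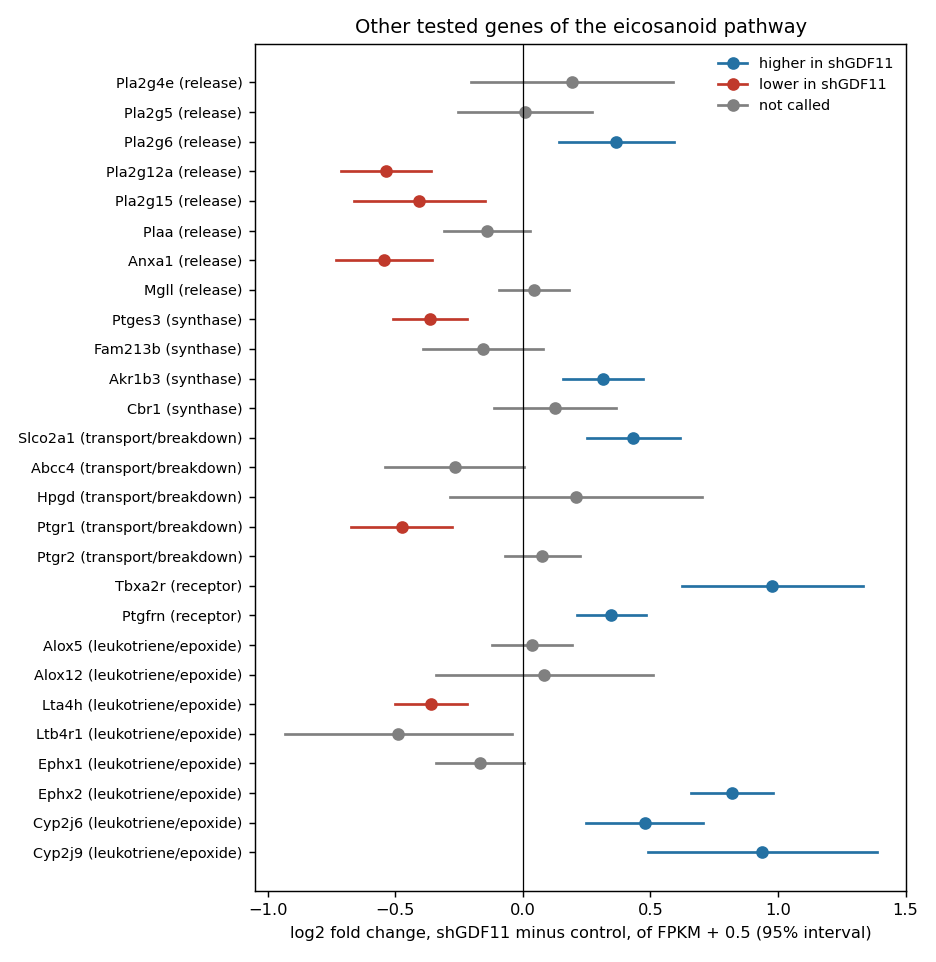
Points give the log2 fold change (shGDF11 minus control) of the 27 tested genes of the wider pathway and lines the 95% interval. Blue genes were called higher (8), red genes lower (6) and grey genes were not called (13), with Tbxa2r (0.98), Cyp2j9 (0.94) and Ephx2 (0.82) farthest to the right. Tbxa2r and Cyp2j9 passed the filter through the shGDF11 libraries alone.

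Among 23 tested genes known to induce or regulate Ptgs2, 8 fell and 2 rose, beside 13.1% lower and 14.4% higher of all tested genes. Their median log2 fold change was -0.19, and 0.01 over all tested genes. The list was chosen with earlier results of these data known, so its counts are description only. Fos, part of the AP-1 factor, fell to 3.11 ± 0.324 FPKM in shGDF11, against 5.63 ± 0.073 FPKM in control (limma adjusted p = 0.0014). Dusp1, a MAP kinase phosphatase, fell to 11.0 ± 0.433 FPKM in shGDF11, against 21.9 ± 2.97 FPKM in control (limma adjusted p = 0.0011). Zfp36, whose protein binds AU-rich elements such as that printed above, fell to 4.70 ± 0.775 FPKM in shGDF11, against 9.86 ± 2.05 FPKM in control (limma adjusted p = 0.0059). The list holds genes that restrain Ptgs2 as well as genes that induce it, so its counts and median carry no single direction for Ptgs2. The rises were Il1r1, the interleukin-1 receptor (6.10 ± 0.423 FPKM in shGDF11 and 4.30 ± 0.160 FPKM in control, limma adjusted p = 0.0060), and the glucocorticoid receptor gene Nr3c1, whose call was lost without any 1 shGDF11 library (limma adjusted p up to 0.0726).

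The main cytokine inducers of Ptgs2 were near the limit of detection. Il1b held 0 to 2 reads in shGDF11 and 0 in control, and Tnf held 4 to 8 reads in shGDF11 and 3 to 6 in control, with a floor of 3 reads. Il1a, one of the 8 falls and named after its values were seen, passed the filter through the control libraries alone. It held 10 to 20 reads in shGDF11 and 43 to 47 in control and fell by 0.96 on the log2 scale (limma adjusted p = 0.0061).

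Genes that respond to cAMP, the messenger of the EP2, EP4 and prostacyclin receptors, showed 4 falls and 0 rises among 11 tested, beside 13.1% lower and 14.4% higher of all tested genes. Their median log2 fold change was -0.37, and 0.01 over all tested genes. By limma voom, 6 of them fell and 0 rose, the most falls of any alternative, beside 2462 of 15418 genes lower, against 2026 in the main test. After TPM rescaling or without any 1 shGDF11 library 3 of them fell, beside 1072 to 1315 of all genes lower. At an unadjusted p under 0.05 in the main limma test 0 of them rose. Sik1, a kinase that cAMP induces, fell to 6.01 ± 0.286 FPKM in shGDF11, against 15.2 ± 2.13 FPKM in control (limma adjusted p = 0.00052). Fosl2 fell by 1.11 and Nr4a1 by 0.71 on the log2 scale (limma adjusted p = 0.00036 and 0.0088). The fall of Pde4b, a phosphodiesterase, was 0.37 on the log2 scale and was not called without any 1 shGDF11 library or after rescaling to TPM (limma adjusted p up to 0.111). These genes respond to many other stimuli, and no prostaglandin was measured. Like the list of regulators, this list was chosen with earlier results of these data known.

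Markers of other cell types also differed between the groups, in both directions. In bulk samples, fewer cells of a type and less RNA per cell cannot be told apart. The marker counts below stand beside 13.1% lower and 14.4% higher of all tested genes, and each list held only 3 to 8 tested markers. The marker lists, too, were chosen with earlier results of these data known. The 8 endothelial markers summed to 48.6 to 51.9 FPKM in shGDF11 and 68.8 to 74.7 FPKM in control, and 5 of 8 fell, Cdh5 and Tie1 among them. The 8 macrophage markers summed to 123.6 to 135 FPKM in shGDF11 and 159 to 182 FPKM in control, and 3 of 7 tested fell (Lyz2, C1qa and C1qb). Lyz2 weighed most in this sum, at 85.3 ± 4.70 FPKM in shGDF11 and 114 ± 7.50 FPKM in control. Csf1r was at 2.37 ± 0.163 FPKM in shGDF11 and 2.36 ± 0.150 FPKM in control. The 8 smooth muscle and pericyte markers summed to 43.7 to 46.1 FPKM in shGDF11 and 59.3 to 74.0 FPKM in control, and 4 of 8 fell. Cnn1, among the falls, had the widest gap in FPKM, at 10.6 ± 0.255 in shGDF11 and 27.4 ± 5.54 in control. The uncalled Rgs5, Kcnj8, Pdgfrb and Notch3 had log2 fold changes of 0.01, 0.29, 0.06 and 0.11. Of the 4 falls 1 was left without shGDF11 replicate 1 or control replicate 2, and 2 without shGDF11 replicate 2 or 3 or control replicate 3 and with no filter on low values. After TPM rescaling 2 fell and 1 rose. Tagln, among the 4 falls, passed the filter through the control libraries alone. It held 9 to 17 reads in shGDF11 and 21 to 39 in control.

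The 6 platelet and megakaryocyte markers summed to 4.41 to 5.26 FPKM in shGDF11 and 6.63 to 8.68 FPKM in control, and 1 of 3 tested, Pf4, fell. The 8 fibroblast markers summed to 368 to 386 FPKM in shGDF11 and 291 to 346 FPKM in control, and 2 of 8 rose (Col1a2 and Col3a1). Col1a1, the most abundant of them, was not called (limma adjusted p = 0.34), and Pdgfra and Tcf21 each had a log2 fold change of -0.17 with no call. The 8 epicardial and mesothelial markers summed to 34.6 to 34.9 FPKM in shGDF11 and 28.9 to 30.6 FPKM in control, with 3 rises and 1 fall among 7 tested, and 0 falls without shGDF11 replicate 1 or 3. Upk3b, among the 3 rises, passed the filter through the shGDF11 libraries alone. It held 62 to 76 reads in shGDF11 and 21 to 25 in control. Cardiomyocyte markers summed to 6464 to 6755 FPKM in shGDF11 and 7884 to 8115 FPKM in control, with 2 rises and 4 falls among 8. Actc1 weighed most in this sum, at 2767 ± 33.9 FPKM in shGDF11 and 4187 ± 327 FPKM in control. The means of Tnnt2, Tnni3 and Myl2 were higher in shGDF11 and those of the other markers lower. The calls became 0 rises and 1 fall without shGDF11 replicate 2 or 3, and 1 rise and 1 fall without control replicate 2. They became 1 rise and 2 falls without shGDF11 replicate 1 or control replicate 3. Dropping the low-value filter ended all 6 calls, TPM rescaling gave 3 rises and 2 falls, and a fit with no variance trend gave 2 rises and 2 falls. No marker was at 0 in every library. Vessel-wall cells and macrophages are known to express Ptgis, Ptgs1 and Ptgs2, and the part of such cells in the falls of Ptgs2 and Ptgis was not tested.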

How the data were processed

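RNA-seq of 3 shGDF11 and 3 control libraries was analysed from FPKM values that the authors deposited, grouped by treatment label. Per the submitters' processing notes, CASAVA 1.8, HISAT2 2.0.5, featureCounts 1.5.0-p3, GRCm38 and mm10 were named, without roles. The sources used here give neither annotation release nor strand use. Members and lists were chosen with earlier results of these data known. The test, for genes averaging 0.5 FPKM or more, took log2(FPKM + 0.5) into limma 3.58.1 (R 4.3.3, eBayes with variance trend, two-sided, Benjamini-Hochberg over 15418 genes). FPKM times gene length gave whole reads within 0.05 for at least 99.9668% of positive values, and limma voom on these reads was an alternative. The other alternatives were pseudocount, filter, library scaling, variance trend, a replicate block and omission of each library. The fit was also run on simulated data with far fewer changed genes than were called here. That run does not bear on how many of the calls are false. Nearest profiles were the 3 closest genes of at least 5 FPKM. By rule, the called pathway genes and the 4 genes of smallest p among the regulators and among the cAMP genes were named. The other regulators named (Il1a, Il1b, Tnf and Nr3c1), the uncalled or untested pathway genes and the single markers were chosen after their values were seen. RefSeq promoters matched 9 of 10 members. The 3′ ends are from GENCODE M21, taking each gene's longest. The pairing check gave correlations of same-numbered deviations of 0.0153, 0.0149 and -0.0521, so the numbers were not taken as pairs. Intervals cover the spread between libraries and read floors only counting error.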

Additional observations from a re-analysis of the deposited data

How the results depend on the processing

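Ptgs2 was called lower under all 15 alternatives and Ptgis under 8, and the 7 other tested members were called under none. The members called were 2 in the main test and 1 with TPM rescaling, without the low-value filter and with the replicate block, Ptgs2 being the one left. They were 1 to 2 when a library was left out. The 14 pathway genes called were 9 to 15 when a library was left out (9 without shGDF11 replicate 2) and 12 with the replicate block. Over all genes, 4253 calls became 2328 to 4233 when a library was left out (2720, 2328 and 2529 without shGDF11 replicates 1, 2 and 3) and 3223 with the replicate block. TPM rescaling raised the median log2 fold change by 0.09 and the share of calls that were higher to 66.2%, against 52.4%. The sign of Ptges turned with TPM (0.0212) and over the omissions ran from -0.1667 to 0.0629. That of Pla2g4a turned with TPM (0.066) and over the omissions ran from -0.1062 to 0.0574. Neither was called. The log2 ratio of Ptgs2 to Ptgs1 was -2.24 to -1.93 over its alternatives. Depth limits the receptors, above all Ptger2 with 1 to 15 reads.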
